A study of Mus musculus with 6 samples.

Results

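The genes described here are 9 receptors and co-receptors for Wnt proteins in MC3T3-E1 cells, a mouse pre-osteoblast line. They were chosen by symbol from the deposited gene table: the LRP co-receptor genes Lrp4, Lrp5 and Lrp6, the Frizzled genes Fzd1, Fzd2, Fzd7 and Fzd8, and the receptor kinase-like genes Ror2 and Ryk. All 9 were found among 23358 rows, and all 9 were among the 13784 genes that passed the low-count filter. The cells come from the calvaria of the C57BL/6 strain. Confluent cultures grown with fetal serum received 1 µM NU7441, which blocks DNA-dependent protein kinase, or the solvent DMSO, in both cases for 16 h. Each group holds 3 sequenced samples of 1 cell line with 47312968 to 71292628 deposited counts each. Per the series' design text, triplicates of 3 independent experiments were pooled, and the labels do not tie a sample to an experiment, so the p-values speak only for the scatter among these pools, which may be technical.

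Wnt proteins bind Frizzled receptors, which span the membrane several times, through an extracellular cysteine-rich domain. In the canonical branch they also bind LRP5 or LRP6, the receptor complex recruits Dishevelled and Axin, and beta-catenin is spared from degradation and acts with TCF/LEF factors in the nucleus. ROR2 and RYK are receptors of branches that do not need beta-catenin, and ROR2 is best known as a receptor for WNT5A. In bone, loss of LRP5 lowers and certain activating changes raise bone mass, and LRP4 presents the Wnt inhibitor sclerostin.

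The Frizzled genes described here are close relatives, so that it matters whether reads of 1 could be counted for another. Fzd1, Fzd2 and Fzd7 encode a conserved stretch that recruits Dishevelled, known as the KTXXXW motif, followed by 17 codons before the stop codon. The stretch is shown for the 3 members with the most alike coding sequences, from the GENCODE M21 transcripts (5′ to 3′ on the coding strand), and the capitals mark the 6 in-frame codons of the motif, a lysine, a threonine, any 3 residues and a tryptophan.
Fzd1: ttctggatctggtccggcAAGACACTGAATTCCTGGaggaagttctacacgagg
Fzd2: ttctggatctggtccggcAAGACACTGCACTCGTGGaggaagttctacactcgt
Fzd7: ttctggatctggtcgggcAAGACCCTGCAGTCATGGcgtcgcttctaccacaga
On mm10 these lie in the only coding exon of each gene, at chr5:4755688-4755741 on the minus strand for Fzd1, chr11:102606355-102606408 on the plus strand for Fzd2 and chr1:59484589-59484642 on the plus strand for Fzd7. Over their whole coding sequences Fzd1 and Fzd2 were 82.0% identical in aligned bases, Fzd1 and Fzd7 78.6%, and Fzd2 and Fzd7 78.6%, whereas Lrp5 and Lrp6 were 68.4% identical. Among the annotated transcripts of these genes and of Lrp4 and Fzd8, the 9 pairs within each family shared 0 runs of 50 identical bases. No source used here gives the read length.

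The levels of the 9 genes spanned a wide range, and Fzd1 was the highest in both groups. Levels are compared between genes only as the deposited RPKM, which divides a count by the deposited gene length and the sample's total. With DMSO alone Fzd1 stood at 34.1, 32.6 and 31.3 RPKM, and Fzd8, the lowest, at 5.23, 5.38 and 5.14 RPKM. Between them in falling order of the DMSO mean came Ryk (26.2 ± 1.07 RPKM, SD, n = 3), Lrp6 (26.1 ± 0.271), Lrp5 (19.0 ± 0.966), Fzd2 (16.5 ± 0.406), Fzd7 (16.4 ± 0.229), Lrp4 (8.14 ± 0.151) and Ror2 (6.19 ± 0.216). In DMSO the samples of Ryk and Lrp6 overlapped, as did those of Fzd2 and Fzd7, and no other neighbours in the order did. In NU7441 the order by deposited RPKM was Fzd1, Lrp6, Ryk, Lrp5, Fzd7, Fzd2, Lrp4, Fzd8 and Ror2. On that scale no neighbours overlapped. The order depends on the gene models: with the merged exons of GENCODE M21 as lengths, chosen after seeing the data, Lrp5 moved from rank 4 to rank 6 in DMSO and Fzd7 from rank 6 to rank 4. The deposited length of Lrp5 is 5172 bases against 9738 for the merged exons, and that of Fzd8 is 3346 against 5974, where the levels of those genes per length are less certain. For Ror2 the lengths are 3970 and 4242 bases. With merged exons Ror2 (27.0 CPM in NU7441) would stay above Fzd8 (29.4 CPM) in both groups, so their exchange rests on the deposited lengths. The rest of the NU7441 order was not computed with merged exons.

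**Figure D1:**
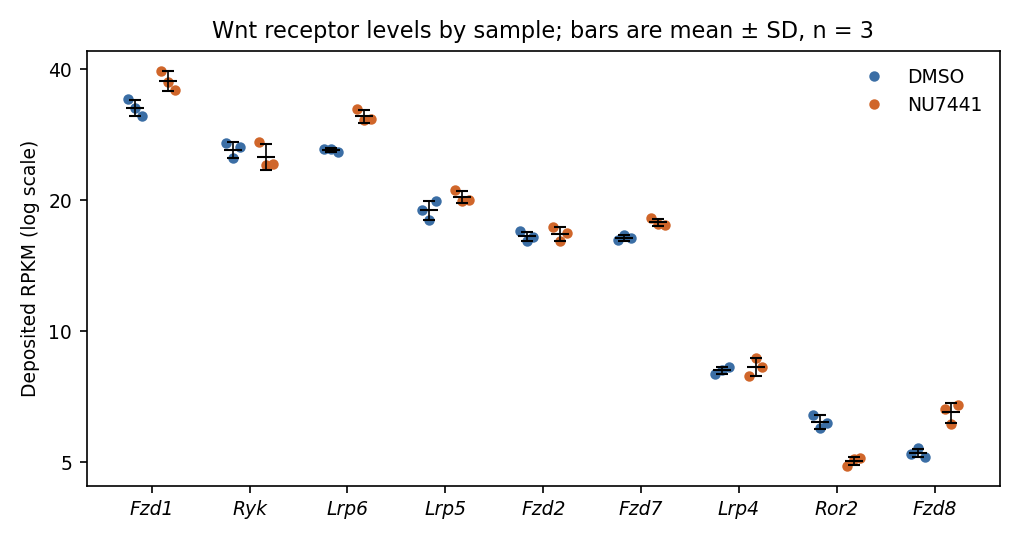
Deposited RPKM (log axis) of the 9 Wnt receptor genes in each DMSO and NU7441 sample, with the mean and SD (n = 3) as bars, in falling order of the DMSO mean. Fzd1 is highest in both groups. Ror2 and Fzd8 exchange places between DMSO and NU7441 with the deposited lengths, but would not with the merged exons of GENCODE M21.

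With NU7441, 5 of the 9 receptors rose, 1 fell and 3 did not pass the test. Lrp6, Fzd8, Fzd1, Fzd7 and Lrp5 were higher, by 1.09-fold to 1.27-fold, and Ror2 was lower, at 0.831 times the DMSO level. Lrp4, Fzd2 and Ryk did not pass an adjusted p of 0.05 in the quasi-likelihood test of edgeR. The background was high, since 30.7% of all 13784 tested genes were called (14.1% higher and 16.6% lower). The share of calls that were higher was 45.9% of those genes with TMM scaling and 56.5% with upper-quartile scaling, and under both scalings 5 receptors were higher and 1 lower. The groups did not overlap in TMM-scaled CPM (a count as its share of the library, per 1e6 counts) for the same 6 receptors that were called, where 42.8% of all tested genes did not overlap. The median log2 fold change of the 9 genes was 0.13, against 0.01 over all genes tested, and the median absolute change of all genes tested was 0.12. All 8 genes of a proliferation list (Mki67, Top2a, Plk1, Aurkb, Ccnb1, Cdk1, Mcm2 and Rrm2) fell between the same samples, with a summed level of 177 to 194 RPKM in DMSO and 66.7 to 78.4 in NU7441, and the part of that shift in the receptor changes was not tested.

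**Figure D2:**
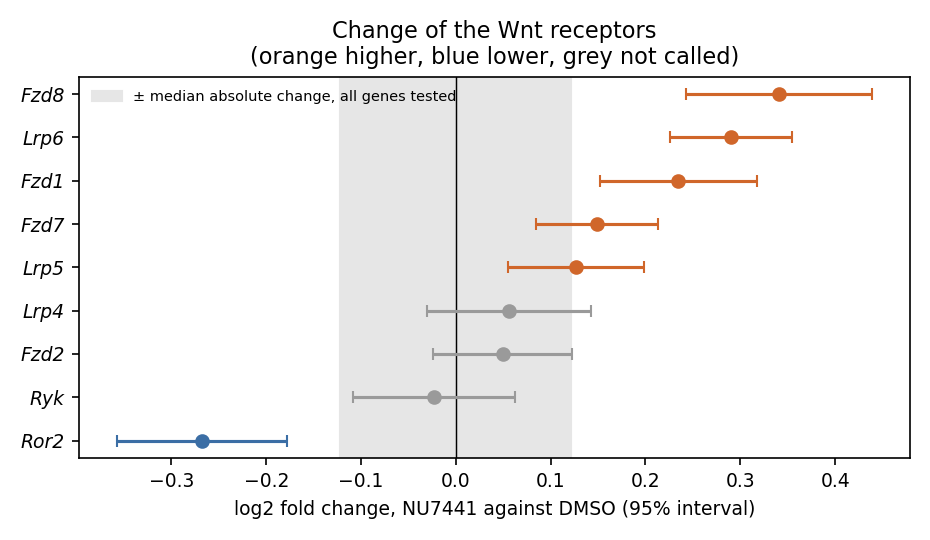
Log2 fold change of each Wnt receptor in NU7441 against DMSO with its 95% interval from edgeR, and in grey the band of plus or minus the median absolute change of all genes tested (0.12). Fzd8, Lrp6, Fzd1, Fzd7 and Lrp5 lie above 0, Ror2 lies below 0, and the intervals of Lrp4, Fzd2 and Ryk cross 0.

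Among the co-receptors Lrp6 moved most. Lrp6 encodes the co-receptor needed for canonical signalling in most tissues (mm10 chromosome 6, 134446478 to 134566913, minus strand, 23 exons in its principal transcript). Its level was 325, 327 and 317 CPM with DMSO and 403, 390 and 391 CPM with NU7441. Every NU7441 sample was above every DMSO sample, and the gap between the groups was wider than the range within either. Lrp6 rose by 0.29 ± 0.03 on the log2 scale (SE; adjusted p = 3.7e-06 in edgeR), a level 22.3% higher. With each library left out in turn it lay between 0.27 and 0.30, and the adjusted p between 1.2e-05 and 7.9e-05.

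Lrp5, the relative of Lrp6 tied to bone mass, rose less (mm10 chromosome 19, 3584825 to 3686564, minus strand, 23 exons). The DMSO samples held 130, 124 and 136 CPM and the NU7441 samples 145, 140 and 141 CPM. The groups did not overlap on this scale, but they did in the deposited RPKM, where the highest DMSO sample was at 19.97 and the lowest NU7441 sample at 19.91. Lrp5 rose by 0.13 ± 0.03 on the log2 scale (adjusted p = 0.0097 in edgeR). The call was lost without DMSO replicate 2, the sample with the lowest Lrp5 level (log2 fold change 0.10, adjusted p = 0.0843, against 0.00476 to 0.0843 over all libraries left out in turn).

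Lrp4, the agrin and sclerostin receptor (mm10 chromosome 2, 91457531 to 91513901, plus strand, 38 exons), did not pass. Its levels were 99.0, 102 and 102 CPM in DMSO and 98.4, 111 and 106 CPM in NU7441, so the lowest sample of all was an NU7441 sample. The log2 fold change of Lrp4 was 0.06 with a 95% interval from -0.03 to 0.14 (edgeR, adjusted p = 0.34). The microRNA row Mir3110, which lies inside Lrp4, held 0 counts in every sample.

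Lrp6 also held a larger part of the summed LRP level with NU7441. Of the summed RPKM of Lrp4, Lrp5 and Lrp6, Lrp6 held 49.3%, 49.99% and 47.7% with DMSO and 52.8%, 51.6% and 52.1% with NU7441, and these shares did not overlap. The summed RPKM of the canonical co-receptors Lrp5 and Lrp6 was 45.1 ± 0.776 in DMSO and 51.6 ± 1.73 in NU7441 (SD, n = 3).

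**Figure D3:**
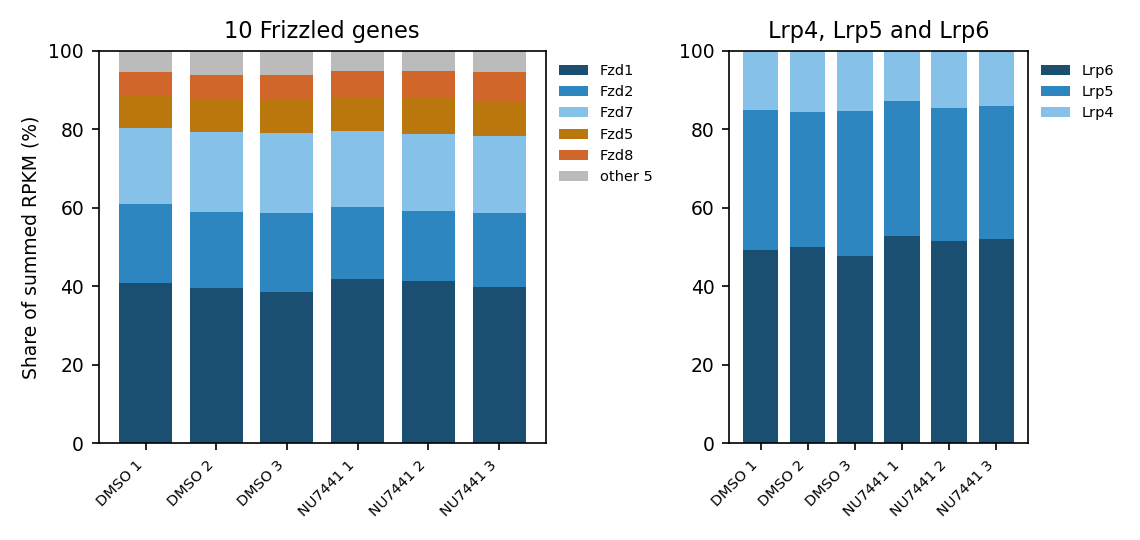
Share of the summed deposited RPKM held by each of the 10 mouse Frizzled genes (left, 5 small ones joined as other) and by Lrp4, Lrp5 and Lrp6 (right), in each sample. Fzd1 holds 38.5% to 42.0% of the Frizzled sum in every sample, and the Lrp6 share is larger in each NU7441 sample than in each DMSO sample.

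The Frizzled genes described here moved by different amounts. Fzd8 had the largest change of the 9 receptors (mm10 chromosome 18, 9212856 to 9216201, plus strand, 1 exon). It stood at 23.1, 24.0 and 22.6 CPM in DMSO and at 29.4, 27.9 and 30.8 CPM in NU7441, with a gap between the groups. Fzd8 rose by 0.34 ± 0.05 on the log2 scale (adjusted p = 4.9e-05 in edgeR). It rests on the fewest reads among the Frizzled members, from 1138 to 1622 deposited counts per sample.

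Fzd1, the most abundant Frizzled gene (mm10 chromosome 5, 4753839 to 4758216, minus strand, 1 exon), rose as well. The DMSO samples held 197, 190 and 180 CPM and the NU7441 samples 231, 223 and 213 CPM. The groups were apart, although the samples of each group spread over about as wide a range as the gap. Fzd1 rose by 0.23 ± 0.04 on the log2 scale (adjusted p = 0.00029 in edgeR).

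Fzd7 (mm10 chromosome 1, 59482147 to 59486955, plus strand, 1 exon) rose by a smaller amount. It went from 103, 107 and 103 CPM in DMSO to 116, 116 and 115 CPM in NU7441, and the NU7441 samples lay close together above the DMSO samples. Fzd7 rose by 0.15 ± 0.03 on the log2 scale (adjusted p = 0.0015 in edgeR). Fzd2 (mm10 chromosome 11, 102604431 to 102608058, plus strand, 1 exon) overlapped between the groups, at 81.2, 78.0 and 78.6 CPM in DMSO and 83.4, 79.8 and 82.9 CPM in NU7441. The log2 fold change of Fzd2 was 0.05, with a 95% interval from -0.02 to 0.12 (edgeR, adjusted p = 0.31).

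The Frizzled pool as a whole was mainly Fzd1, Fzd2 and Fzd7. Summed over the 10 Frizzled genes of the table, the deposited RPKM was 83.7, 82.6 and 81.3 in DMSO and 94.7, 90.3 and 89.7 in NU7441, a ratio of means of 1.11. Fzd1 held 39.6% ± 1.14 of that sum in DMSO and 41.1% ± 1.05 in NU7441 (SD, n = 3), so its share overlapped between the groups. The share of Fzd2 went from 20.04% ± 0.426 to 18.3% ± 0.44 and that of Fzd8 from 6.37% ± 0.133 to 7.11% ± 0.404, and neither overlapped. The small shares of Fzd4 (0.708% to 0.478%) and Fzd6 (2.87% to 2.57%) did not overlap either. In CPM 42.8% of all genes tested did not overlap. A share can fall while others rise, and Fzd2 itself was at 16.5 RPKM in DMSO and 16.8 in NU7441.

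Of the 9 members, Ror2 alone was called lower. It encodes a receptor tyrosine kinase-like protein needed for skeletal development (mm10 chromosome 13, 53109317 to 53286109, minus strand, 9 exons). The DMSO samples held 33.6, 31.7 and 32.0 CPM and the NU7441 samples 25.8, 27.5 and 27.5 CPM. Every NU7441 sample was below every DMSO sample. The log2 fold change of Ror2 was -0.27 ± 0.04 (edgeR, adjusted p = 0.0002), and with each library left out it lay between -0.28 and -0.24.

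Ryk, a Wnt receptor with a kinase-like domain (mm10 chromosome 9, 102834920 to 102908307, plus strand, 15 exons), did not pass the test. Its samples stood at 117, 109 and 114 CPM in DMSO and 118, 108 and 108 CPM in NU7441, and the highest and the lowest were both NU7441 samples. The log2 fold change of Ryk was -0.02 with a 95% interval from -0.11 to 0.06 (edgeR, adjusted p = 0.71). Its sign changed with upper-quartile scaling and without DMSO replicate 1 or NU7441 replicate 2.

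Whether members changed by different amounts was tested on the ratio of 2 genes within each sample, which does not depend on the scaling. Of 8 pairs, 6 did not overlap between the groups. All pairs but Ror2 with Ryk share a gene with another pair, so these are not 6 separate results. The share over all gene pairs was not computed, and 42.8% of single genes tested did not overlap in CPM. In an exact two-sided permutation test each of those 6 gave p = 0.1, the smallest p that 3 against 3 samples allow, and an adjusted p of 0.13 over the 8 pairs, so no pair could pass 0.05. The log2 ratio of Lrp5 to Lrp6 was -0.46 ± 0.09 in DMSO and -0.62 ± 0.0033 in NU7441 (SD, n = 3), a shift of -0.16 ± 0.05 (SE). The ratio of Fzd1 to Fzd2 shifted by 0.19 ± 0.05 and that of Fzd8 to Fzd7 by 0.19 ± 0.05. The ratio of Ror2 to Ryk shifted by -0.24 ± 0.08, with 1 NU7441 sample at -2.47 and the others at -2.25 and -2.25, against -2.07, -2.06 and -2.11 in DMSO. The pairs that overlapped were Lrp4 with Lrp5, shifted by -0.07 ± 0.08 (exact permutation p = 0.4), and Fzd1 with Fzd7, shifted by 0.09 ± 0.05 (exact permutation p = 0.2).

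**Figure D4:**
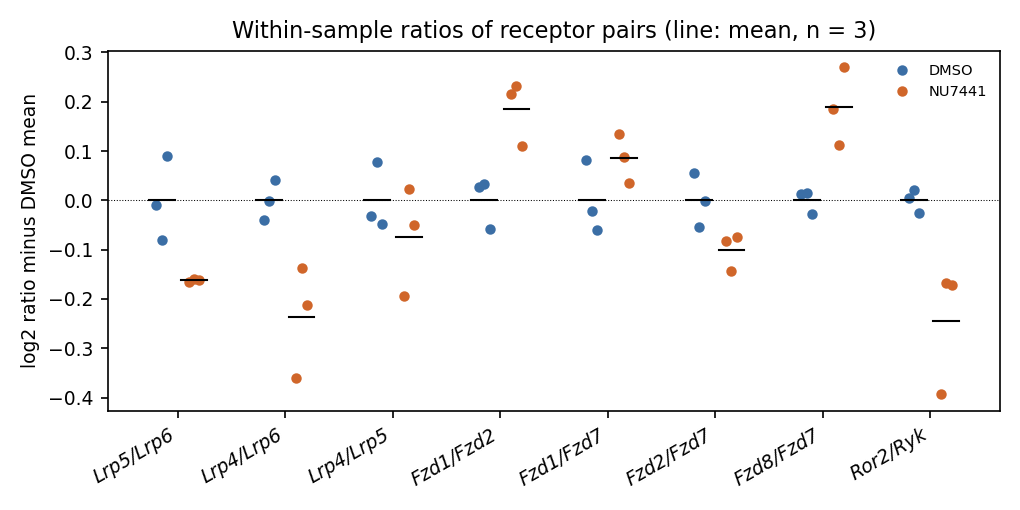
Log2 ratio of the deposited RPKM of 2 receptors within each sample, minus the DMSO mean of that ratio, for 8 pairs, with group means (n = 3) as lines. DMSO and NU7441 samples are apart for 6 pairs and overlap for Lrp4/Lrp5 and Fzd1/Fzd7.

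Promoter sequence was matched by symbol in a RefSeq table (build GRCm38.p6) for 4 of the 9 genes, Fzd1, Fzd7, Ror2 and Ryk. The 250 bases before the start are shown for the 3 of them that passed the test, a pair that rose and Ror2 that fell, to set their makeup side by side. Capitals mark matches on either strand to 4 motifs. Matches to different motifs did not overlap here, but the Fzd7 GC boxes 54 and 49 bases before the start share a base. The GC box was searched as the letters GGGCGG. For the TATA box the search used the letters TATAAA. The core bound by TCF/LEF factors was searched as the letters CTTTG. The last motif was the box named after its own letters, CCAAT.
Fzd1: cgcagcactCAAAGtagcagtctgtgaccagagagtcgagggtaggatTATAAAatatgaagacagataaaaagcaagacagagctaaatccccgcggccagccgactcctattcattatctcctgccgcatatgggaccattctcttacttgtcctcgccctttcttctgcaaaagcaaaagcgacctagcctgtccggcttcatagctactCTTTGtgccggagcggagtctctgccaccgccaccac
Fzd7: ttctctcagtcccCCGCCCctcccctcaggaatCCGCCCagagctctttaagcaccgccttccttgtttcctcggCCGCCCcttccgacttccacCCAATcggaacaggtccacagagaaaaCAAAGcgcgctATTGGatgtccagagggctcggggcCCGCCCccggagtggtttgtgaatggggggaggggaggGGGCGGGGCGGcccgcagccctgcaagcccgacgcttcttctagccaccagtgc
Ror2: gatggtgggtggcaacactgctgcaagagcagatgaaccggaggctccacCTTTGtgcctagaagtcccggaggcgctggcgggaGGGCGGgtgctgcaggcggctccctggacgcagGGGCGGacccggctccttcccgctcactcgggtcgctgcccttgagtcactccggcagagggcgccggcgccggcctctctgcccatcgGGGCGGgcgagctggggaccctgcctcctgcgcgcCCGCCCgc
They lie at chr5:4758217-4758466 (minus strand) for Fzd1, chr1:59481897-59482146 (plus strand) for Fzd7 and chr13:53286125-53286374 (minus strand) for Ror2. The windows depend on the gene model. In GENCODE M21 Fzd1 starts at 4758035 and Fzd7 at 59482424, so that other bases would precede those starts. The Fzd7 window held 6 GC boxes and 2 CCAAT boxes and the Ror2 window 4 GC boxes, and the Fzd1 window held 0 of either. The TCF/LEF core was present 2 times for Fzd1 and 1 time each for Fzd7 and Ror2. Of 32851 windows of the same length in the table, 32.7% held a GC box, 33.8% a CCAAT box, 12.4% a TATA box and 48.6% the TCF/LEF core. A match is a description of letters and not a site.

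The other Wnt receptors in the table included 8 tested genes. For this list and those that follow, the shares over all 13784 genes tested were 14.1% called higher and 16.6% called lower. Of these 1 rose, Fzd5 (by 0.28 ± 0.03 on the log2 scale, from 62.0 to 75.2 CPM; adjusted p = 2.2e-05 in edgeR), and 0 fell, with 1 lower at an unadjusted p of 0.05 and 0 lower with DESeq2. Fzd4 was at -0.38 (adjusted p = 0.063) and became the 1 called lower without NU7441 replicate 1 (adjusted p = 0.038). Ptk7, a pseudokinase co-receptor, had the highest level of all the Wnt receptors listed, at 50.4 RPKM in DMSO and 50.9 in NU7441. Ror1, the relative of Ror2, was at 3.04 and 2.91 RPKM (-0.04 on the log2 scale; adjusted p = 0.76 in edgeR). Fzd10 held 0 counts in all 6 samples.

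Genes that help or remove the receptors included several that rose. Of 12 tested, 5 rose and 1 fell, with a median of 0.09, where 14.1% of all genes tested rose and 16.6% fell. Reck, a membrane protein that helps Wnt7 signalling, rose by 0.33 ± 0.04, and its partner Gpr124 was the 1 that fell (-0.15 ± 0.04, edgeR adjusted p = 0.0057). Tmem59, which promotes Frizzled clustering, rose by 0.22 ± 0.03, and Kremen1, which binds DKK proteins and removes LRP6 from the surface, by 0.17 ± 0.03. The glypicans Gpc6 (0.14 ± 0.03) and Gpc4 (0.11 ± 0.03) rose too. Mesdc2, the chaperone that LRP5 and LRP6 need to fold, was at -0.07 (edgeR, adjusted p = 0.14). The ubiquitin ligases that clear Frizzled receptors, Znrf3 (-0.08, adjusted p = 0.29) and Rnf43 (-0.23, adjusted p = 0.15), did not pass, but Rnf43 was called lower without NU7441 replicate 2 (-0.40, edgeR adjusted p = 0.0066), which made 2 lower.

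In the wider LDL receptor family, to which the LRP genes belong, 3 of 8 tested genes rose and 1 fell, with a median of 0.05. Lrp1, a large endocytic receptor and the family's most abundant gene at 78.7 RPKM in DMSO, rose by 0.23 ± 0.04 (edgeR, adjusted p = 0.00027), and Lrp11 (0.17 ± 0.04) and Lrp10 (0.15 ± 0.04) rose. Lrp8, the reelin receptor, fell by 0.39 on the log2 scale.

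Most ligand genes did not pass the test, as was so over all genes tested, of which 30.7% were called. Of 14 tested genes for Wnt proteins, R-spondins and their secretion, with a median of 0.07, 2 rose, Wnt9a (0.27 ± 0.07) and Rspo2 (0.19 ± 0.05), and 0 fell in edgeR, also at an unadjusted p of 0.05 and with DESeq2. The Wnt genes with the highest levels were Wnt10a, at 14.0 RPKM in DMSO and 13.8 in NU7441, and Wnt10b, at 12.7 and 11.7. Wnt5a, the ligand best known for ROR2, was at 3.91 RPKM in both groups (0.02 on the log2 scale; adjusted p = 0.80 in edgeR). Wls, which carries Wnt proteins to the surface, was at 62.8 and 64.2 RPKM.

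Among the secreted antagonists 2 of 9 tested genes rose and 1 fell, with a median of 0.20. The median is the value of Sfrp1, at 118 to 202 counts per sample and not called (edgeR, adjusted p = 0.42). Igfbp4, the listed antagonist with the highest level (266 RPKM in DMSO), was at 0.06 (edgeR, adjusted p = 0.39), and was called higher without NU7441 replicate 1 (adjusted p = 0.048). Wif1 was at -0.05 (edgeR, adjusted p = 0.49). Over all genes tested 30.7% were called. The genes that rose were Dkk3 (0.32 ± 0.03) and Sfrp2 (0.29 ± 0.03), whose product binds Wnt proteins, and the gene that fell was Notum (-0.43 ± 0.10), which removes the lipid from Wnt proteins and is itself a Wnt target. Dkk2 was at -0.52 (adjusted p = 0.070), and 2 antagonists fell, Dkk2 added, without NU7441 replicate 2, with no low-count filter and with a robust fit. Sost, which encodes sclerostin, held 0 counts in all samples, and Dkk1, an LRP6 inhibitor, held only 14 to 40 counts per sample.

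Few genes of cytoplasmic transduction passed the test, where 30.7% of all genes tested did. Of 25 tested genes of cytoplasmic transduction, with a median of 0.04, 3 rose, Tnks (0.16 ± 0.03), which acts on Axin, Btrc (0.09 ± 0.03) and Csnk1d (0.09 ± 0.03), and 0 fell in edgeR, also at an unadjusted p of 0.05 and with DESeq2. Leaving out DMSO replicate 1, DMSO replicate 2 or any NU7441 replicate left 1 that rose, Tnks. So did scaling by library size only or testing with no low-count filter. Without DMSO replicate 3 there were 2, Tnks and Csnk1e (0.20, edgeR adjusted p = 0.0063), while Btrc and Csnk1d lost their calls. Ctnnb1, which encodes beta-catenin, was at 690 and 702 CPM (0.03 on the log2 scale; adjusted p = 0.52 in edgeR). Of 13 polarity pathway genes, with a median of 0.07, 3 rose, Prickle3 (0.21 ± 0.07), Daam2 (0.20 ± 0.04) and Prickle1 (0.11 ± 0.04), and Vangl1 fell (-0.16 ± 0.04). Leaving out DMSO replicate 2 or NU7441 replicate 3, or scaling by library size only, left 1 polarity gene that rose, and leaving out NU7441 replicate 2 left 0 that fell.

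Several genes that Wnt signalling is known to induce fell. Of 13 tested, 5 fell and 0 rose, where 16.6% of all genes tested were called lower. The median was -0.32, but -0.23 with DESeq2, -0.21 without NU7441 replicate 1 and -0.40 without NU7441 replicate 2. At the looser level 8 were lower and 0 higher at an unadjusted p of 0.05 in edgeR, and DESeq2 called 5 lower and 0 higher. The genes that fell were Nkd2 (-0.83 ± 0.23), Notum, Ccnd1 (-0.41 ± 0.03), Tnfrsf11b, which encodes osteoprotegerin (-0.38 ± 0.08), and Myc (-0.32 ± 0.06). Nkd2 rests on few reads, from 32 to 128 deposited counts per sample. Axin2, the feedback target most often used as a readout, was at 22.3 CPM in DMSO and 20.3 in NU7441 (-0.14 ± 0.05 on the log2 scale, adjusted p = 0.063 in edgeR). The Axin2 groups did not overlap, as was so for 42.8% of all genes tested. Without NU7441 replicate 2 the number that fell was 8, with Axin2 (adjusted p = 0.049), Tcf7 and Rnf43 added. Ccnd1 and Myc also act in proliferation, and the part of the fall in the 8 proliferation genes in these changes was not tested.

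**Figure D5:**
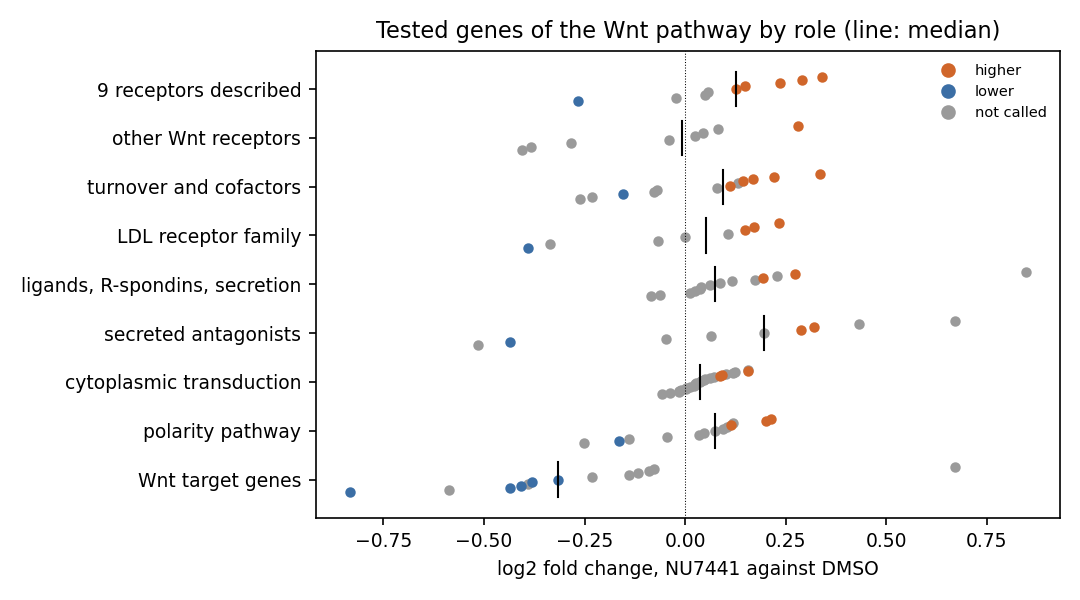
Log2 fold change in NU7441 against DMSO of each tested gene of the Wnt pathway, grouped by role, with list medians as lines and colours for genes called higher, lower or not called by edgeR. The median of the Wnt target genes is -0.32 and that of the 9 receptors 0.13.

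The labelled cell type was checked against marker genes. Col1a1 and Col1a2 stood at 2994 and 3277 RPKM in DMSO and Runx2 at 19.0, while the osteocalcin genes Bglap and Bglap2 held only 2 to 12 counts per sample. Of 8 osteoblast markers tested, 3 rose and 2 fell. Spp1 (0.25 ± 0.03), Sparc (0.11 ± 0.03) and Col1a2 (0.05 ± 0.02) rose, the last pair with overlapping groups, and Ibsp (-0.89 ± 0.15) and Alpl (-0.29 ± 0.07) fell. With a robust fit in edgeR 1 marker rose and 0 fell, with 2 lower at an unadjusted p of 0.05, and DESeq2 called 2 higher and 2 lower. The part of these shifts in the receptor changes was not tested. The blood cell marker Ptprc, the muscle factor Myod1 and the endothelial receptor Kdr held 0 counts in all samples. The summed level of 5 endothelial markers was 0.0612 to 0.108 RPKM in DMSO and 0.0534 to 0.148 in NU7441, and that of 5 muscle markers 0.364 to 0.512 and 0.406 to 0.73. The 6 adipocyte markers summed to 6.47 to 6.96 and 6.83 to 7.33 RPKM, mostly from Cebpa, and the 6 chondrocyte markers to 14.9 to 15.4 and 15.9 to 16.7, mostly from Sox9, 1 of 2 that rose (0.14 ± 0.03). Of the 5 macrophage and osteoclast markers in the table Ctsk made up most of a sum of 54.4 to 57.5 and 57.1 to 58.4 RPKM. In bulk RNA, fewer cells with a transcript and less of it per cell cannot be told apart.

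The genes nearest in profile to the called members with the lowest adjusted p are given as a ranking only. No typical distance between genes was computed. Likeness was measured as the distance between log2 CPM profiles over the 6 samples, each centred on its own mean. The candidates were 8505 genes with a mean of at least 10 CPM, without the members and without genes of a Gm or Rik name. The genes nearest to Lrp6 were Nsa2 (distance 0.0319), Dnm3os (0.0349) and Ppp1r3b (0.0373), those nearest to Fzd8 were Tcea3 (0.0339), Kdm5b (0.0453) and Arntl (0.0741), and those nearest to Ror2 were Rbm28 (0.0448), Ahr (0.0491) and Bhlhe40 (0.0554).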

How the data were processed

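The authors deposited a count and an RPKM value for each gene and sample with a gene length, per the file headers. All deposited counts were even (0 odd values), and the totals per sample lay between 47312968 and 71292628. The RPKM values divide by a total that the gene counts fill to 74.2% to 75.7%. The submitters' processing notes name bcl2fastq, TopHat2 2.0.6, HTSeq and mm10. No source used here says whether counting used strand. There were 0 unmapped sample columns.

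In R 4.3.3, genes were kept by filterByExpr at a count of 10 and a total of 15. Libraries were scaled by TMM, and edgeR 4.0.16 fitted quasi-likelihood models tested two-sided, with Benjamini-Hochberg adjustment over all genes at 0.05. The SE is the log2 fold change divided by the square root of F, and nearest profiles used a prior count of 2. The members and lists were chosen with earlier results of these data known. Named genes are the 9 members, the called genes of each list with at most 5 of them (otherwise the 3 with the largest change), genes of at least 10 RPKM where useful, and the 3 nearest profiles of the 3 members with the lowest adjusted p. A few others (Fzd4, Fzd6, Fzd10, Ror1, Mesdc2, Znrf3, Rnf43, Wnt5a, Sost, Sfrp1, Dkk1, Dkk2, Csnk1e, Axin2, Tcf7 and single markers) were named after their values were seen, for their role or their place in a list. Alternatives were other scalings, DESeq2 1.42.0, no filter, a robust fit, halved counts, a replicate block and each library left out. Every pair of samples within a group was further apart than counting noise, so none was merged.

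The procedure was tested on simulated data for NU7441 against DMSO with 13660 genes: among genes with a mean of at least 1000 counts, as the members have, it recovered 48% of 1.15-fold and 94% of 1.25-fold changes, with 8 of 179 calls false. Only 50 genes were changed at each fold size, a far smaller part than the 30.7% called in the data. The simulated spread followed the trend with level, without differences between genes. The rates in the data may therefore differ.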

Additional observations from a re-analysis of the deposited data

How the results depend on the processing

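Each member was refitted under 15 alternatives, 1 of which (without the Rn45s row) was chosen after seeing the data. In 131 of these refits the direction and the side of the threshold were the same, and in 4 they were not. Lrp6, Fzd1, Fzd7, Fzd8 and Ror2 kept their call in every one. Lrp5 lost its call only without DMSO replicate 2 (adjusted p = 0.0843). The log2 fold change of Ryk turned to 0.0025 with upper-quartile scaling, 0.00029 without DMSO replicate 1 and 0.0010 without NU7441 replicate 2, over a range from -0.0688 to 0.0010 with each library left out. The number of receptors higher was 4 without DMSO replicate 2 and 5 otherwise, and 1 was lower throughout. Counts of called genes over the whole table stayed within 1.5 times those given. Counts within the short pathway and marker lists did not always: besides those given with the lists, chondrocyte markers higher went from 2 to 1 with DESeq2, library size only and with any DMSO replicate or NU7441 replicate 1 left out. Macrophage and osteoclast markers higher went from 0 to 1 with upper-quartile scaling, a robust fit or the replicate block. The same change came without DMSO replicate 2 or NU7441 replicate 1. Adipocyte markers higher went from 0 to 1 with upper-quartile scaling. No pair ratio changed direction with a library left out. With GENCODE exon lengths, chosen after seeing the data, Lrp5 took rank 6 and Fzd7 rank 4 in DMSO, the only group ranked that way.

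Same-numbered DMSO and NU7441 samples correlated at 0.13, 0.09 and 0.05 in their deviations from the group means, so the numbers were not taken as pairs, although every sample correlated best with its own number. With the replicate block 2417 genes were higher and 2703 lower, with 5 receptors higher and 1 lower, 8 Wnt targets and 2 antagonists lower, and 5 cytoplasmic genes higher.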
